A study of Mus musculus with 5 samples.

Results

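Genes of the quiescent and naive T cell state were followed in invariant natural killer T (iNKT) cells of mouse liver, with and without a chemically induced liver tumour. The 10 chosen were the transcription factors Tcf7, Lef1, Satb1, Bach2, Klf2, Klf3, Foxo1 and Foxp1 and the antiproliferative genes Btg1 and Tob1, 10 of the 55364 gene rows, each found by its Ensembl gene ID. The cells came from wild-type (WT) C57BL/6 mice, stated to be male. Those labelled healthy had been given PBS (2 libraries), and the HCC mice had received 25 mg/kg of diethylnitrosamine (DEN), a liver carcinogen, once by intraperitoneal injection at 15 days of age and had hepatocellular carcinoma (3 libraries). Mice were killed at 38 to 42 weeks of age. The cells had been sorted from whole-liver lymphocytes by binding of a CD1d tetramer carrying the lipid PBS57 and of anti-TCRb antibody, so each library is a bulk measure in which fewer cells of a type and less RNA per cell cannot be told apart. The libraries are described as from separate mice and are treated so here, although the table names of HCC 2 and HCC 3 share a number. The comparison asks how liver iNKT cells of mice with HCC differ from those of healthy mice.

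Quiescence in T cells is an actively kept state. TCF1 (the product of Tcf7) and LEF1 are HMG-box factors that bind the same DNA core, work with beta-catenin or with Groucho/TLE corepressors, and are needed for early T cell development and for the self-renewing pool of memory and exhausted T cells. SATB1 organises chromatin in thymocytes, and BACH2 competes with AP-1 factors and restrains effector differentiation. KLF2 and FOXO1 drive genes of trafficking and survival such as S1pr1, Ccr7 and Il7r, while FOXP1 opposes FOXO1 at some of these genes and KLF3 opposes other KLF factors through CtBP. BTG1 and TOB1 are linked to the CCR4-NOT deadenylase, which shortens poly(A) tails, and BTG1 is tied to the resting state of T cells. In the iNKT lineage, which leaves the thymus in a memory-like state set by PLZF (Zbtb16), TCF1 and LEF1 are also known for roles in development.

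The deposited numbers look like counts, but they had been scaled per library and rounded. In healthy 1, 63 of the whole numbers from 1 to 100 were held by 0 genes, and in HCC 3 28 of them were, so that 1 read was worth 2.65 and 1.39 deposited units in these libraries. The same step was 0.759 in healthy 2, 0.707 in HCC 1 and 0.440 in HCC 2. Dividing by the step gave 837606 counted reads in healthy 1, the fewest, then 1352319 in HCC 3, 2400499 in healthy 2, 2600136 in HCC 1 and 3903338 in HCC 2, whereas the deposited totals lay between 1718452 and 2224356 and were highest in healthy 1. Levels below are CPM, values rescaled so that each table sums to 1000000. A single read was worth 1.19, 0.417, 0.385, 0.256 and 0.739 CPM in healthy 1, healthy 2, HCC 1, HCC 2 and HCC 3. No read in a library allows a level of up to 3.58, 1.25, 1.15, 0.769 and 2.22 CPM (3 reads) in the same order, and in HCC 2 a single read is rounded to 0 as well. Reads are not distinct molecules, so these limits and all counting intervals cover counting error only. Healthy 1, the shallowest library, also stood apart: its correlation with the other libraries across the tested genes was 0.767 to 0.820, against 0.848 to 0.903 for the other pairs, and it was the lowest of the 5 libraries in 41.8% of the tested genes.

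**Figure D1:**
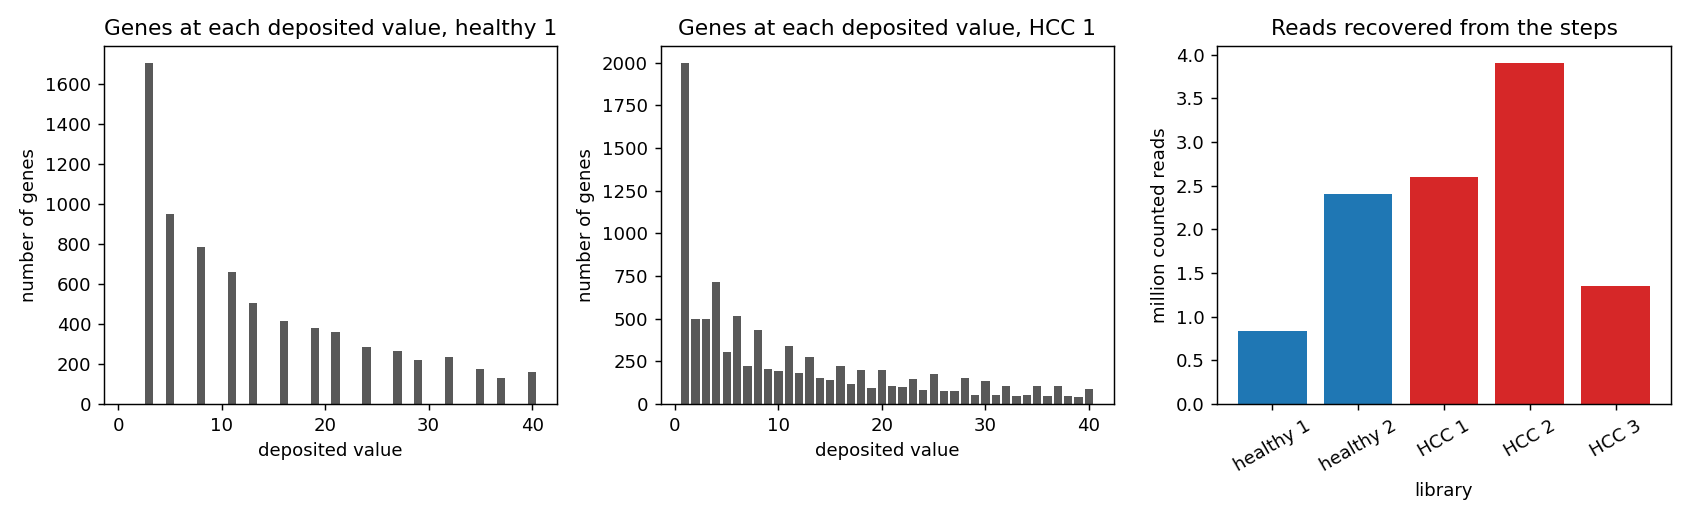
Number of genes (vertical axis) at each deposited value from 1 to 40 in healthy 1 and in HCC 1, and the counted reads of each library (axis in units of 1000000 reads) as recovered from the step between values (bars, blue for healthy and red for HCC). In healthy 1 whole numbers are missing at regular intervals, in HCC 1 values reached by 1 more read number stand above their neighbours, and recovered reads range from 837606 in healthy 1 to 3903338 in HCC 2.

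Of the 10 genes, 8 passed the filter on low values (at least 5 CPM in at least 2 libraries), and Bach2 and Tob1 did not. With limma on log2(TMM-scaled CPM + 1), 0 of the 8 were called higher and 0 were called lower at an adjusted p under 0.05, as were 0 of all 8602 tested genes (0% in each direction). The fitted difference was above 0 for Tcf7, Lef1, Satb1, Klf2 and Foxo1 and below 0 for Klf3, Foxp1 and Btg1, that is 5 of 8 above 0 against 51.5% of all tested genes. At an unadjusted p under 0.05 only Tcf7 passed, on the higher side, where 2.98% of all tested genes stood, and none passed on the lower side, against 0.942%. In 0 of the 10 genes did all HCC libraries lie above both healthy libraries and in 0 did all lie below, against 12.9% and 5.37% of the tested genes. This count and those of the same kind below use CPM without TMM scaling, so narrow gaps can open or close on the scale of the fit. The median difference of the 8 was 0.36 (log2), beside 0.03 over all tested genes. Without healthy 1 that median was -0.058 with 3 of 8 above 0, and without healthy 2 it was 0.69 with 6 of 8 above 0, beside -0.056 and 0.078 over all tested genes. With 2 against 3 libraries the intervals are wide, and a p above the threshold does not show that levels were alike.

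**Figure D2:**
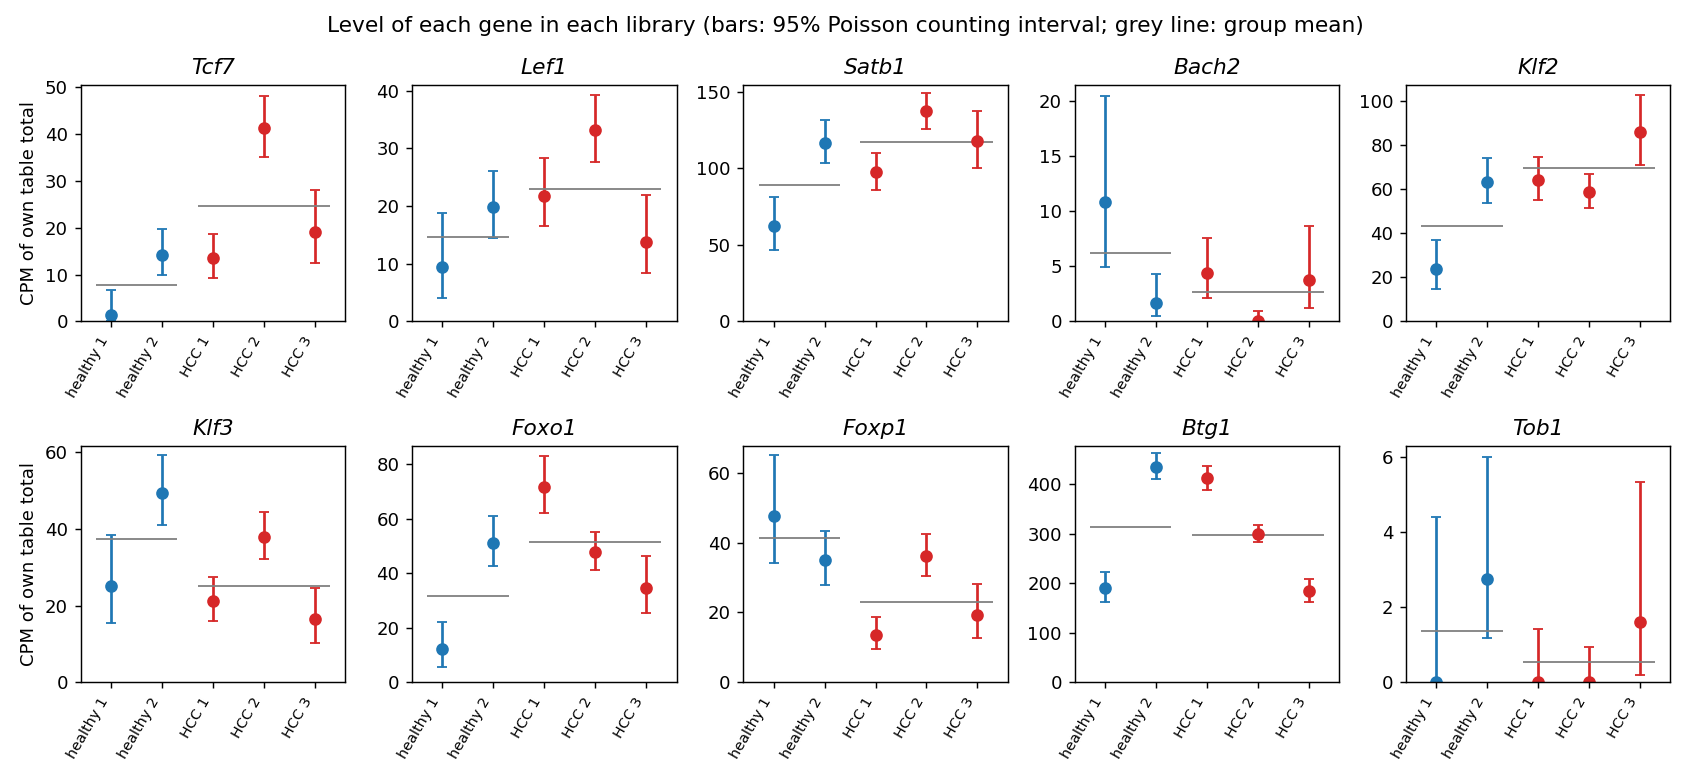
Level of each of the 10 genes in CPM of the table's own total (vertical axis, from 0, a separate scale per gene) in each library, with 95% exact Poisson counting intervals and a grey line at the mean of the 2 healthy (blue) or 3 HCC (red) libraries. In every panel the healthy and HCC points overlap in range, and in Tcf7, Lef1, Satb1, Klf2, Foxo1 and Tob1 no library lies below healthy 1.

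Tcf7 had the largest fitted difference of the 8 and the fewest reads in healthy 1. Its level was 1.35 CPM in healthy 1 (1 read, 95% Poisson interval 0.0302 to 6.65 CPM) and 14.3 in healthy 2, then 13.6 in HCC 1, 41.3 in HCC 2 and 19.1 in HCC 3. Healthy 1 was far below all others, HCC 2 was far above, and the groups overlapped because HCC 1 lay just under healthy 2. The group means were 7.81 ± 9.14 CPM in healthy (SD, n = 2) and 24.7 ± 14.7 CPM in HCC (SD, n = 3). The fitted log2 difference, HCC minus healthy, was 1.82 (SE 0.79, 95% interval 0.11 to 3.54; adjusted p = 0.931, limma).

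That value for Tcf7 rested on which healthy library was used. Without healthy 1 the difference was 0.57 (SE 0.66, adjusted p = 0.995 with limma), and without healthy 2 it was 3.08 (SE 0.76, adjusted p = 0.0292), the one call among the 10 genes under any setting run, in which the lone healthy library is assumed to vary like the HCC libraries. Limma-voom on the recovered reads, which weights each value by its depth, gave 1.13 (SE 1.03, adjusted p = 0.993). A pseudocount of 5 CPM in place of 1 gave 1.24 (SE 0.57).

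Lef1, the partner and near relative of Tcf7, was read at 9.44 CPM in healthy 1 and 19.8 in healthy 2, then 21.8 in HCC 1, 33.2 in HCC 2 and 13.8 in HCC 3. The lowest library was again healthy 1 and the highest again HCC 2, with HCC 3 between the 2 healthy libraries. Its log2 difference was 0.45 (SE 0.57, 95% interval -0.78 to 1.68; adjusted p = 0.946, limma), with 0.09 (SE 0.61) without healthy 1 and 0.81 (SE 0.63) without healthy 2. The ratio of Tcf7 to Lef1 was 0.143 in healthy 1 and 0.722 in healthy 2, against 0.625, 1.25 and 1.38 in HCC 1, 2 and 3, so HCC 1 lay below healthy 2 and HCC 2 and 3 above both healthy libraries.

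Satb1 was among the better measured of the 10 genes, with 52 to 536 reads per library. It stood at 62.0 CPM in healthy 1 and 117 in healthy 2, then 97.4 in HCC 1, 137 in HCC 2 and 118 in HCC 3. Apart from the low value of healthy 1, the libraries lay close together, and healthy 2 fell inside the HCC range. The means were 89.5 ± 38.8 CPM in healthy (SD, n = 2) and 117.5 ± 20.0 CPM in HCC (SD, n = 3), a log2 difference of 0.27 (SE 0.38, 95% interval -0.56 to 1.09; adjusted p = 0.946, limma). Without healthy 1 the difference was -0.03 (SE 0.37), and without healthy 2 it was 0.58 (SE 0.37).

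Bach2 was near the limit of detection and was not tested. It had 9 reads in healthy 1 (10.8 CPM), 4 in healthy 2 (1.65 CPM), 11 in HCC 1 (4.35 CPM) and 5 in HCC 3 (3.72 CPM), and was listed at 0 in HCC 2, a value that 0 or 1 read would give. Unlike Tcf7, Lef1 and Satb1, its highest level was in healthy 1 and its lowest in HCC 2. The interval of the healthy 1 value, 4.91 to 20.4 CPM, overlapped those of HCC 1 and HCC 3. It did not overlap those of healthy 2 (0.454 to 4.27 CPM) and HCC 2 (0 to 0.945 CPM).

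Among the KLF factors, Klf2 stood at 23.8 CPM in healthy 1 and 63.1 in healthy 2, then 64.2 in HCC 1, 58.8 in HCC 2 and 86.0 in HCC 3. Healthy 1 was far below the other 4 libraries, healthy 2 was above HCC 2, and HCC 3 was the highest. The difference was 0.63 (SE 0.46, 95% interval -0.36 to 1.62; adjusted p = 0.931, limma) with all libraries, 0.09 (SE 0.43) without healthy 1 and 1.18 (SE 0.44, adjusted p = 0.126) without healthy 2.

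Klf3 went the other way in the fit. It was measured at 25.2 CPM in healthy 1 and 49.4 in healthy 2, then 21.2 in HCC 1, 37.8 in HCC 2 and 16.5 in HCC 3. The highest value was a healthy one and the lowest an HCC one, but HCC 2 exceeded healthy 1. Its log2 difference was -0.73 (SE 0.51, 95% interval -1.83 to 0.37; adjusted p = 0.931, limma), with -1.06 (SE 0.55) without healthy 1 and -0.40 (SE 0.57) without healthy 2. The ratio of Klf2 to Klf3 was 0.946 and 1.28 in the healthy pair against 3.03, 1.55 and 5.23 in HCC 1 to 3, without overlap of the groups. The ratio of Satb1 to Tcf7 did not overlap either, with 46 and 8.19 against 7.16, 3.32 and 6.17 in the same order. Tcf7 had 1 read in healthy 1, 34 in healthy 2 and 35 in HCC 1. Klf3 had 119 reads in healthy 2 and 148 in HCC 2. Counting error was not carried into these ratios and could close the gaps between their nearest values. The groups did overlap in the ratios of Tcf7 to Lef1 and of Foxo1 to Foxp1. How many of all gene pairs separate the groups was not worked out. The ratios were formed after the genes' values had been seen and were not tested.

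Foxo1 was at 12.1 CPM in healthy 1 and 51.0 in healthy 2, then 71.8 in HCC 1, 47.7 in HCC 2 and 34.5 in HCC 3. Only HCC 1 was above healthy 2, while all 3 HCC libraries were above healthy 1. The fitted difference of 0.77 (SE 0.56, 95% interval -0.44 to 1.98; adjusted p = 0.931, limma) was -0.08 (SE 0.48) without healthy 1 and 1.63 (SE 0.51, adjusted p = 0.0769) without healthy 2.

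Foxp1, which can oppose Foxo1, had 47.7 CPM in healthy 1 and 35.1 in healthy 2, then 13.6 in HCC 1, 36.1 in HCC 2 and 19.1 in HCC 3. Both healthy libraries were high together with HCC 2, and HCC 1 and HCC 3 were low. Group means were 41.4 ± 8.86 CPM in healthy (SD, n = 2) and 22.9 ± 11.7 CPM in HCC (SD, n = 3), and the log2 difference was -1.10 (SE 0.53, 95% interval -2.25 to 0.05; adjusted p = 0.931, limma). Foxp1 was the only one of the 8 tested genes whose highest level was in healthy 1, which held for 18.8% of all tested genes, and its difference lay below 0 without either healthy library (-0.73, SE 0.60, without healthy 1 and -1.45, SE 0.57, without healthy 2). The ratio of Foxo1 to Foxp1 ran from 0.255 in healthy 1 to 5.28 in HCC 1, with 1.45 in healthy 2, 1.32 in HCC 2 and 1.81 in HCC 3.

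**Figure D3:**
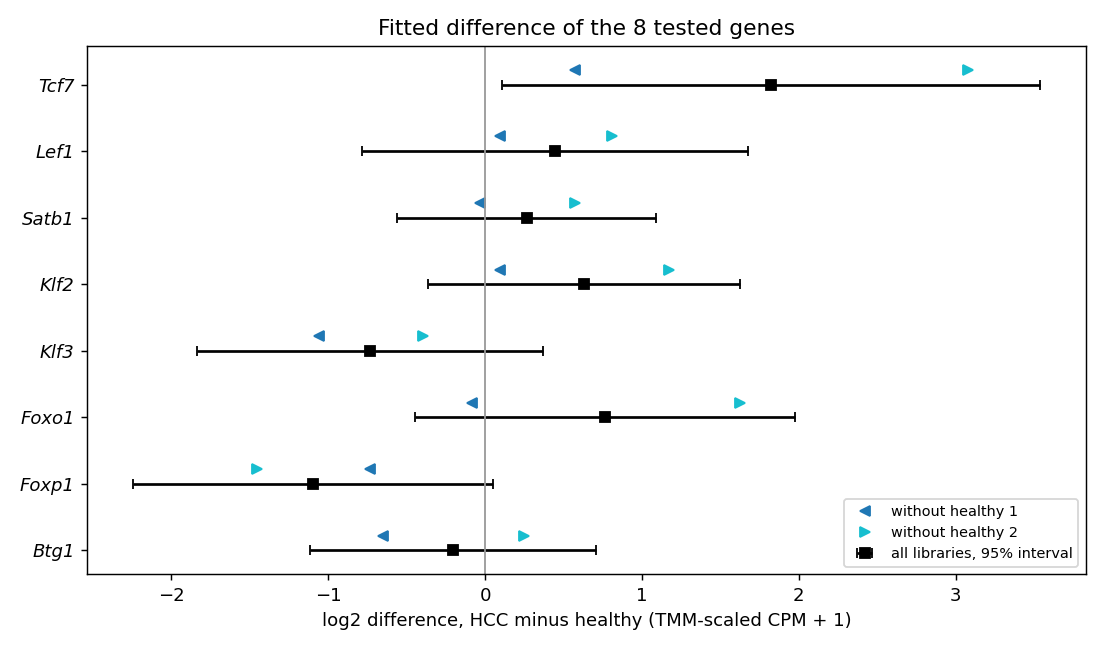
Fitted log2 difference, HCC minus healthy, on the log2(TMM-scaled CPM + 1) scale for the 8 tested genes (black squares with 95% intervals from limma), with the difference when healthy 1 or healthy 2 is left out (triangles). The interval of Tcf7, 0.11 to 3.54, excludes 0 before adjustment over all genes, and Satb1, Foxo1 and Btg1 lie on different sides of 0 depending on which healthy library is left out.

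Btg1 was the most abundant of the 10 genes in all 5 libraries. Its level was 190 CPM in healthy 1 and 436 in healthy 2, then 412 in HCC 1, 299.7 in HCC 2 and 184 in HCC 3. One healthy and 1 HCC library were low, and 1 of each was high, so that the groups spanned nearly the same range. The means of 313 ± 174 CPM in healthy (SD, n = 2) and 298 ± 114 CPM in HCC (SD, n = 3) gave a log2 difference of -0.20 (SE 0.42, 95% interval -1.11 to 0.71; adjusted p = 0.961, limma). It was -0.65 (SE 0.40) without healthy 1 and 0.25 (SE 0.40) without healthy 2. Of the 31-base words in the last 300 bases of annotated Btg1 transcripts, 30.9% also occur in the processed pseudogene Gm14519, whose row was at 0 in all 5 libraries, so reads from that stretch may be split or lost.

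Tob1, the other antiproliferative gene, was listed at 0 in healthy 1, HCC 1 and HCC 2, with 7 reads in healthy 2 (2.74 CPM) and with 2 in HCC 3 (1.59 CPM). No comparison was made for it. Its relative Tob2 had 16.6, 27.4, 38.6, 27.9 and 20.7 CPM in healthy 1, healthy 2, HCC 1, HCC 2 and HCC 3, above Tob1 in every library.

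Sequencing from the 3' end gives about 1 read per transcript whatever its length, so levels of different genes can be set roughly beside each other in CPM. The order is limited by end words shared with other genes (30.9% for Btg1, 27.0% for Foxo1, 0% for Tcf7, Lef1 and Klf2). It also depends on a counting rule and a strand setting that are not known. By mean over the 5 libraries the order was Btg1 (304 CPM), Satb1 (106), Klf2 (59.2), Foxo1 (43.4), Foxp1 (30.3), Klf3 (30.0), Lef1 (19.6), Tcf7 (17.9), Bach2 (4.10) and Tob1 (0.867). Btg1 ranked first and Satb1 second in all 5 libraries, whereas the places from Klf2 to Tcf7 changed between libraries: Foxp1 had rank 3 in healthy 1 and rank 7 in HCC 1 and HCC 2, and Tcf7 ran from rank 9 in healthy 1 to rank 5 in HCC 2 and HCC 3. Satb1 stood at the 87.6 and Tcf7 at the 50.5 percentile of the tested genes by mean level.

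Summed over the 10 genes the level was 382 CPM in healthy 1 and 790 in healthy 2, then 720 in HCC 1, 692 in HCC 2 and 496 in HCC 3, of which Btg1 gave 37.0 to 57.2%. The healthy libraries were the lowest and the highest of the 5. The means were 586 ± 288 CPM in healthy (SD, n = 2) and 636 ± 122 CPM in HCC (SD, n = 3), a difference of 49.9 CPM that was below the spread of either group and became -9.49 CPM with TMM-scaled values. Leaving out Btg1, the healthy sums were 192 and 354 CPM and the HCC sums 308, 392 and 312 CPM.

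The start regions of the 10 genes were searched for the binding cores of their own families, since several of these factors are known to regulate one another. RefSeq windows on GRCm38.p6, from 250 bases before to 50 after each start, gave 20 promoters for the 10 genes and 32851 in all. The forkhead core GTAAACA, searched on both strands (TGTTTAC on the other), was found in 2 of the 20, for Btg1 and Tcf7, and in 3.65% of all promoters. Both are shown in the direction of the gene with 20 bases on each side and the core in capitals. The Btg1 stretch lies before the start at chr10:96616777-96616823 on the plus strand, and the Tcf7 stretch lies across the start of 1 of its transcripts at chr11:52282568-52282614 on the minus strand.
Btg1: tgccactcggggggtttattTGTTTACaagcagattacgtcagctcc
Tcf7: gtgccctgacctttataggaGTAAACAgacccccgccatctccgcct
The TCF/LEF core CTTTGAT was in 0 of the 20 (3.73% of all promoters), the AP-1 site TGAGTCA in 0 (5.20%), and the short KLF box CACCC in 15 of the 20, belonging to 7 genes (57.5% of all promoters). Some windows of Lef1 and of Satb1 overlap, so the same boxes are counted more than once. The 20 promoters also had a higher median share of G and C, 62.8% against 52.7% in all promoters. A match is a run of letters in this window and not a bound site, and the absence of one covers only these letters.

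Genes that work with the 10 factors were taken from lists of known partners, targets and relatives, and 0 genes of any list were called in either direction with limma. Among the TCF/LEF partners and Wnt readout genes, 10 of 18 were tested, with 5 fitted above 0 and 5 below and a median of -0.02. Tle3, a Groucho corepressor, read 15.7 and 13.2 CPM in the healthy pair against 32.1, 44.2 and 18.6 CPM in HCC 1 to 3. All HCC values were thus above both healthy ones in CPM without TMM scaling. With the TMM factors of 0.8304 in healthy 1 and 1.002 in HCC 3, healthy 1 lay slightly above HCC 3. The fitted difference was 0.83 (SE 0.53, adjusted p = 0.931, limma). Beta-catenin, Ctnnb1, was at 88.1 to 222 CPM with a difference of 0.29 (SE 0.41), and Aes, a short Groucho relative, was highest in healthy 1 (372 CPM) with a difference of -0.45 (SE 0.49). Axin2, the usual readout of Wnt signalling, was not tested, with 0 to 7.43 CPM.

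Of the KLF2 and FOXO1 targets, 10 of 15 were tested, with 8 above 0 and 2 below (median 0.11). Il7r, the receptor chain for the survival cytokine IL-7, read 118 and 112 CPM in the healthy pair against 100, 195 and 146 CPM in HCC 1 to 3, a difference of 0.12 (SE 0.39, adjusted p = 0.982). The gut-homing integrin Itgb7 differed by -0.30 (SE 0.39). Sesn3, a stress sensor and FOXO target, read 4.95 and 23.6 CPM in the healthy pair against 43.5, 46.0 and 26.0 CPM in HCC 1 to 3, with all HCC values above both healthy ones (1.505, SE 0.60, adjusted p = 0.931). Ccr7, a homing receptor of naive T cells, did not pass the filter and reached at most 2.196 CPM.

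Close relatives of the factors gave 7 differences above 0 and 5 below among 12 tested of 23 (median 0.24). Foxo3 read 25.2 and 24.7 CPM in the healthy pair against 31.02, 43.6 and 32.4 CPM in HCC 1 to 3 (0.31, SE 0.46), and Foxn3 was low in healthy 1 alone, with 23.8 CPM against 75.1 to 95.5 in the other libraries (0.70, SE 0.47). Klf10, an early response gene, differed by -1.97 (SE 1.11, adjusted p = 0.931) with 1 read each in HCC 1 and HCC 3. The BTG/TOB relatives and the CCR4-NOT complex had 16 of 18 tested, with 9 above 0 and 7 below (median 0.16). In 6 of these 16 all HCC libraries were above both healthy ones and in 1 they were below, against 12.9% and 5.37% of all tested genes. Among the 6 was Pan3, a deadenylase subunit (2.02, SE 0.76, adjusted p = 0.931), which had 1 read in healthy 1. The most abundant of this list, Pabpc1 and Cnot6l, differed by -0.13 (SE 0.36) and -0.17 (SE 0.38).

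Other regulators of T cell quiescence had 30 of 31 tested, with 20 above 0 and 10 below (median 0.25). In 6 of the 30 all HCC libraries lay above both healthy ones and in 2 below, against 12.9% and 5.37% of all tested genes. Among the 6 was Vsir, whose fitted difference after TMM scaling was -0.0002 (SE 0.36). The phosphatase gene Dusp6 differed by 0.18 (SE 0.37), the translation inhibitor gene Pdcd4 by -0.18 (SE 0.37), and the ubiquitin ligase gene Cblb by 2.26 (SE 0.79, adjusted p = 0.931). Cblb had 1 read in healthy 1, 22.0 CPM in healthy 2 and 25.0, 41.3 and 50.4 CPM in HCC 1, 2 and 3. Factors of activated and effector T cells had 14 of 21 tested, with 5 above 0 and 9 below (median -0.11). In 0 of these 14 all HCC libraries lay above and in 2 below, beside the same 12.9% and 5.37%. In the 3 lists of partners, targets and relatives, with 10, 10 and 12 genes tested, 1 gene each lay above and 0 below, again beside 12.9% and 5.37%. Id2 and Tbx21, which are high in NKT1 cells, differed by 0.30 (SE 0.39) and -0.36 (SE 0.36), and Rora read 41.8 and 36.8 CPM in the healthy pair against 15.2, 20.4 and 26.5 CPM in HCC 1 to 3, all below (-1.10, SE 0.50, adjusted p = 0.931).

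**Figure D4:**
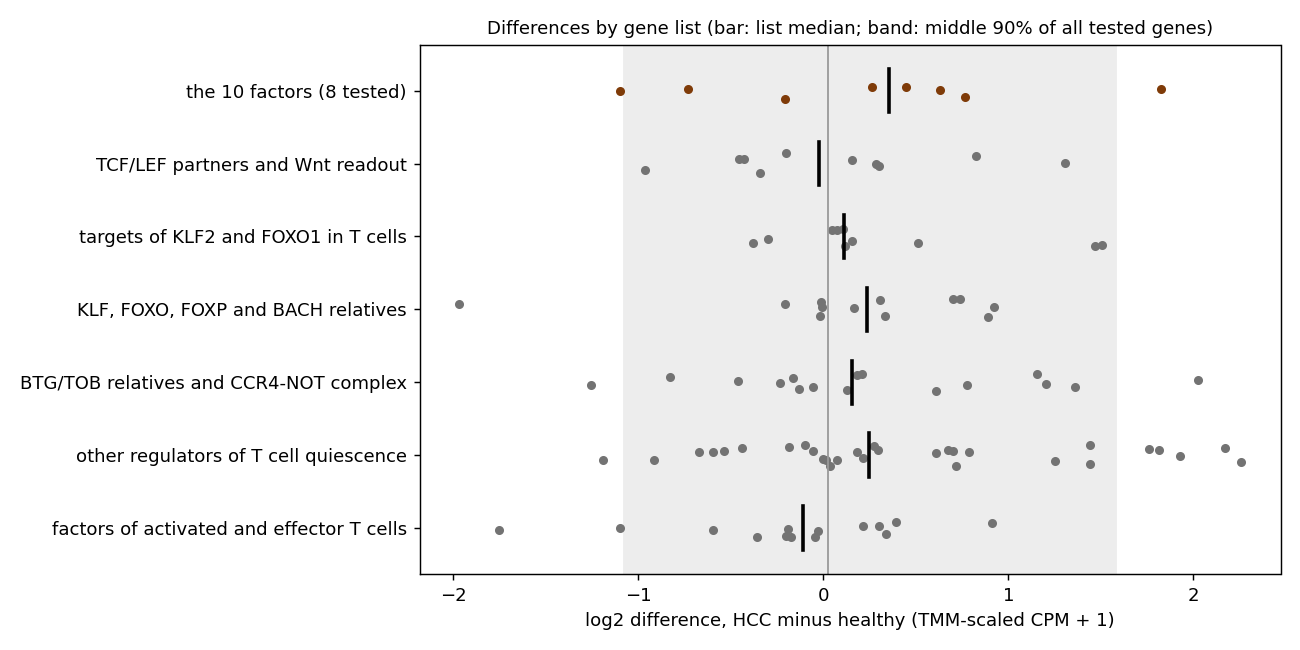
Fitted log2 difference, HCC minus healthy, of each tested gene (points, spread vertically at random within a row) for the 10 factors and 6 lists of related genes, with a black bar at each list's median, a grey line at the median of all tested genes and a band over the middle 90% of them (-1.08 to 1.58). The list medians lie between -0.11 for activated and effector factors and 0.36 for the 8 tested factors, and the single genes of each list spread on both sides of 0.

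The genes most like Tcf7 over the 5 libraries, by the root mean square difference of centred log2(CPM + 1), were Tnfrsf1b (0.21), Clasp2 (0.22) and Mthfd1 (0.22). The search covered 4855 tested genes, Tcf7 and Satb1 included, whose mean reached 10 CPM. Rows with Gm, Rik or -ps names and rows without a symbol were left out of it. Tnfrsf1b, which encodes TNF receptor 2, read 4.95 and 37.3 CPM in the healthy pair against 27.2, 74.5 and 38.2 CPM in HCC 1 to 3, with the same low healthy 1 and high HCC 2. Satb1 had closer neighbours, namely Hopx (0.05), AC137605.6 (0.06) and Banf1 (0.06). Hopx, a cofactor gene expressed in T-bet-positive lymphocytes, read 36.0 and 70.3 CPM in the healthy pair against 59.9, 77.4 and 66.3 CPM in HCC 1 to 3.

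Markers of the sorted cell and of other cells were read beside these values. T cell receptor and other iNKT genes were abundant in every library (18 listed genes summing to 4842 to 6695 CPM), but Klrb1c, which encodes NK1.1, split the libraries across the groups, with 382 and 5.49 CPM in the healthy pair against 465, 20.9 and 333 CPM in HCC 1 to 3. It was thus low in healthy 2 and in HCC 2, the library highest in Tcf7, Lef1 and Satb1. The 7 NK cell markers gave sums of 89.5 and 29.1 CPM for the healthy pair against 147, 22.7 and 48.8 CPM for HCC 1 to 3, with Ncr1 and Klra4 at 0 in all. Traj18 ranged from 0 CPM in healthy 1 to 48.3 CPM in healthy 2, Zbtb16 was at 0 to 1.65 CPM, Trav11 at 0 to 0.549 CPM and Trbv13-2 and Trbv29 at 0. The sum of 8 markers of conventional and naive T cells, in which Tcf7, Lef1 and Klf2 are usually high, read 65.6 and 62.0 CPM in the healthy pair against 55.0, 83.8 and 72.2 CPM in HCC 1 to 3, highest in HCC 2 as were Tcf7, Lef1 and Satb1. The 12 B and plasma cell markers, from a lineage that also expresses Bach2, Foxo1 and Btg1, gave sums of 64.7 and 129.5 CPM for the healthy pair against 118, 192 and 149 CPM for HCC 1 to 3. Erythroid markers gave 2975 and 2787 CPM for the healthy pair against 7391, 17083 and 15385 CPM for HCC 1 to 3, with Slc4a1 and Klf1 at 0 in all, and hepatocyte markers gave 48.6 and 56.5 CPM against 65.3, 307 and 627 CPM. Macrophage and Kupffer cell markers gave 43.2 and 8.78 CPM for the healthy pair against 28.3, 33.8 and 11.1 CPM for HCC 1 to 3. Liver endothelium markers, mostly Ptprb, gave 38.2 and 9.88 CPM against 15.8, 9.89 and 14.3 CPM. Healthy 1 was the highest library in both lists. Neutrophil markers gave 527 and 379 CPM against 320, 488 and 589 CPM, nearly all from Mmp9 (311 to 587 CPM). The part of such cells in the levels of the 10 genes was not tested.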

How the data were processed

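The libraries were made with a QuantSeq 3' kit for Ion Torrent, per the labels' protocols. The submitters' processing notes name the build mm10 and, among other tools with no role stated, the aligners HISAT2 and Bowtie2. How reads were counted, with which annotation and strand setting, is not given in the sources used here. The deposited values are a scaled signal per gene: whole numbers that are read counts multiplied by a factor per library and rounded. The divisors by which reads had been divided were 0.377, 1.32, 1.42, 2.27 and 0.718 in healthy 1, healthy 2, HCC 1, HCC 2 and HCC 3, estimated from the steps between values and tested on simulated data. Where the step is under 1 (healthy 2, HCC 1, HCC 2) neighbouring read numbers can share a value, so reads there are known to within about 1.

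The test planned for raw counts was therefore replaced after the values were seen. Genes with at least 5 CPM in 2 libraries were scaled by TMM (factors 0.8304, 1.035, 1.037, 1.12 and 1.002 in the same order) and log2(CPM + 1) was fitted with limma 3.58.1 (R 4.3.3, trended prior, no block) over the 5 libraries, with Benjamini-Hochberg adjustment over 8602 genes and a threshold of 0.05. Fold changes on this scale understate those of low genes. CPM printed as levels use each table's own total without TMM. Symbols came from GENCODE M21 by gene ID (55104 of 55364 matched). Rows of pseudogenes held 31.7 to 38.5% of the deposited total. Genes overlapping the 10 on the genome were at most at 7.68 CPM (C230085N15Rik, in Satb1), and without the strand setting antisense reads cannot be told apart. Besides Btg1, the shared 31-base words in transcript ends were 27.0% for Foxo1, 7.76% for Foxp1, 4.80% for Klf3, 0.343% for Satb1 and 0% for the other 5 genes.

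The 10 genes, the lists, the markers and the rule for named genes were chosen with earlier results of these data known. From each list the text names the 2 tested genes with the highest mean CPM and the 1 with the smallest p, and Axin2, Ccr7, Tob2 and the marker genes were added after their values were seen. Sequences are from RefSeq (GRCm38.p6). Alternatives were other scalings, filters and pseudocounts, the replicate number as a block, protein-coding genes only, HCC 2 and 3 summed (their table names share a number, although the design text counts 3 mice), each library left out, limma-voom on recovered reads and estimated sample weights.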

Additional observations from a re-analysis of the deposited data

How the results depend on the processing

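Depth limits the low genes most in healthy 1, with 837606 reads, where 1 read is 1.19 CPM. Over 16 alternatives for each of the 8 tested genes, 121 of 128 values kept the direction and the side of the threshold, 6 reversed without passing it and 1 passed it. The latter was Tcf7 without healthy 2 (3.08, adjusted p 0.0292 with limma); over its other alternatives its adjusted p was 0.884 to 0.9998. Reversals were seen for Btg1 with a block on replicate number (0.072) and with HCC 2 and 3 summed (0.025) and others came with 1 library left out, when Btg1 ranged from -0.649 (without healthy 1) to 0.251 (without healthy 2) and was 0.072 without HCC 3, Satb1 from -0.034 to 0.576 and Foxo1 from -0.082 to 1.625 (without healthy 1 and without healthy 2); the cause was not tested. Of all tested genes 0 were called, 337 had an unadjusted p under 0.05, and limma-voom on the recovered reads called 0 with 268 under it. Without any filter 2 genes were called higher, and 2 with the replicate block. Leaving out 1 library gave 0 to 309 genes called higher, 0 to 152 called lower and 0 to 1 of the 10 genes called higher, the upper ends all without healthy 2. The summed level of the 10 genes differed by 49.9 CPM, and by -154 to 253.7 CPM when 1 library was left out, the ends being without healthy 1 and without healthy 2. Scaling by library totals moved the median of all genes from 0.03 to 0.19, with 5 of 8 genes above 0, whereas without healthy 1 the count was 3 of 8 (median -0.058).

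The groups share replicate numbers 1 and 2 only, and deviations from the group means correlated at 0.00 and 0.12 across genes in the 2 pairs, so the numbers were not taken to pair the libraries; in the replicate block HCC 3 has no partner. The planned count-model tests and limma-voom on the deposited values were not run, since those values are not counts. The pseudocounts, limma-voom on recovered reads and sample weights were chosen after seeing the data. No group has enough libraries for an outlier test.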
